A study of Homo sapiens with 6 samples.

Results

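The genes described here are 10 transcription factors of the early response to growth and stress signals: the JUN proteins JUN, JUNB and JUND, the FOS proteins FOS and FOSL1, the zinc finger factors EGR1, KLF4, KLF6 and KLF10, and MYC. They were taken as the rows of the deposited count table whose name equals one of these symbols, and all 10 were present among 11957 rows. The table holds read counts per gene from poly(A)-selected, strand-specific RNA sequencing of OVCA433 cells, an established line from a human ovarian cancer, in 3 libraries labelled U2AF2 SI and 3 labelled U2AF2 SINC. The series asks what a deficiency of U2AF2, the large subunit of the factor that marks the 3′ splice site of introns by binding their pyrimidine-rich stretch, does to gene expression in these cells. The labels give neither a treatment nor a time, do not expand the abbreviations, and do not say whether replicates were separate cultures, so p-values measure the spread between these libraries only, which may be technical.

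JUN and FOS proteins pair through leucine zippers into the dimer called AP-1, which binds DNA through the adjoining basic regions. Many of these genes are switched on within minutes of a growth factor or stress signal, without new protein synthesis, when kinase cascades activate factors already bound at their promoters, and the mRNAs are then quickly degraded. EGR1 binds GC-rich sites, MYC drives growth and ribosome production together with its partner MAX, and the KLF proteins bind GC and CACCC boxes. JUN, JUNB and JUND are unusual in having no intron.

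U2AF2 itself stood at 285, 346 and 373 CPM in replicates 1, 2 and 3 labelled U2AF2 SI and at 252, 284 and 206 CPM in those labelled U2AF2 SINC, where CPM is counts per 1000000 after scaling of library sizes with TMM factors. Its mean was therefore 26.1% lower in the libraries labelled U2AF2 SINC (log2 fold change 0.44 ± 0.19 SE for U2AF2 SI minus U2AF2 SINC, edgeR adjusted p = 0.653). The labels do not say in which group U2AF2 was made deficient. The 2 labels may be exchanged, or the count columns tied to them the other way round, and in either case every direction below would turn. The groups all but touched, at 285 CPM in the lowest library labelled U2AF2 SI and 284 CPM in the highest labelled U2AF2 SINC. These values do not show that U2AF2 RNA was depleted in either group. Libraries held 43333966 to 48976810 counts. Of 17 markers of ovarian carcinoma and epithelium, 3 were measured (KRT18 at 206 to 409 CPM, KRT8 at 32.9 to 52.5 and MUC1 at 2.17 to 3.65), and the other 14, EPCAM, PAX8 and MUC16 among them, were not analysed here. Of the markers of other cell types, 5 of 10 for fibroblasts were measured and summed to 1211 to 1804 CPM in libraries labelled U2AF2 SI and 1500 to 1595 CPM in those labelled U2AF2 SINC, most of it ACTA2. There was 1 of 10 for leukocytes (CD68, 48.2 to 56.3 CPM) and 2 of 8 for endothelium (EGFL7 and ESAM, together 16.8 to 39.6 CPM); PTPRC and PECAM1 were not analysed here. In RNA from a whole culture, fewer expressing cells and less RNA per cell cannot be told apart.

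None of the 10 genes differed between the groups once p-values were adjusted over all rows. The fit was edgeR's quasi-likelihood test with Benjamini-Hochberg adjustment, and the members' adjusted p ran from 0.653 to 0.960; limma-voom also called 0 members, and DESeq2 gave them no adjusted p. The background of that call was 0.00836% of rows, a single row named after its values were seen (HERC3). At an unadjusted p under 0.05 there was 1 member, KLF10, higher in libraries labelled U2AF2 SI, where 3.15% of all rows were higher and 4.22% lower. By their log2 fold changes 9 members lay above 0, against 54.3% of rows, with a median of 0.22 against 0.04 for all rows. With library size alone in place of TMM factors those medians were 0.42 and 0.22, so the members' median relative to all rows was 0.19 with TMM factors and 0.20 without. With replicate 2 of the U2AF2 SI group left out, 6 members lay above 0. With replicate 3 of the U2AF2 SINC group left out, the members' median was 0.11 against 0.05 for all rows, which is 0.06 relative to them.

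**Figure D1:**
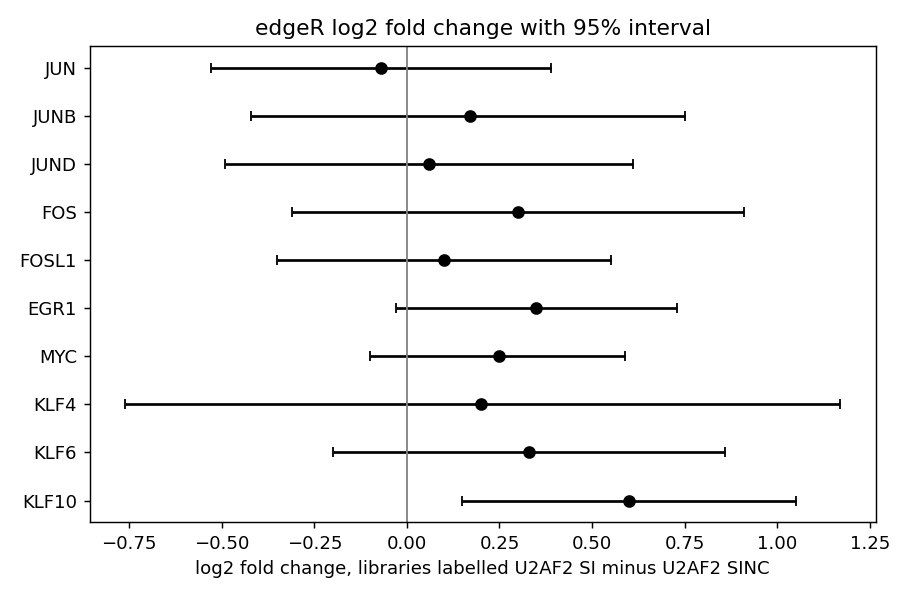
Log2 fold change of each gene, libraries labelled U2AF2 SI minus those labelled U2AF2 SINC, as points with 95% intervals from edgeR's fit (n = 3 libraries per group). The interval of KLF10, 0.15 to 1.05, is the only one that lies wholly above 0, and none of the 10 passed after adjustment over all rows.

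KLF10, EGR1 and MYC were the 3 members in which every library labelled U2AF2 SI lay above every library labelled U2AF2 SINC. Over all rows, 7.36% stood that way and 5.68% the opposite way, and no member stood the opposite way. The other 7 overlapped between the groups.

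KLF10, first known as the TGF-beta inducible early gene, encodes a repressor that acts in TGF-beta signalling. It had 69.8, 53.9 and 50.4 CPM in replicates 1, 2 and 3 labelled U2AF2 SI and 30.7, 39.9 and 44.2 CPM in those labelled U2AF2 SINC. Replicate 1 was the highest library in the first group and the lowest in the second, and the groups came closest in replicate 3. The means were 58.0 ± 10.3 and 38.3 ± 6.88 CPM (SD, n = 3 each), 1.52-fold apart, with a log2 fold change of 0.60 ± 0.20 (SE, 95% interval 0.15 to 1.05), an edgeR adjusted p of 0.653 and an unadjusted p of 0.0128, which ranked 213 among the rows. A 2-sided exact permutation test over the 6 libraries gave p = 0.1, the smallest that 3 libraries against 3 can give. With replicate 1 of the U2AF2 SI group omitted the edgeR unadjusted p was 0.0535 and the log2 fold change 0.43, and with that of the U2AF2 SINC group omitted they were 0.0623 and 0.46.

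EGR1 encodes a zinc finger activator that is itself a classic target of serum response factor and its ELK partners. It had 85.4, 75.8 and 94.9 CPM in replicates 1, 2 and 3 labelled U2AF2 SI and 62.4, 63.2 and 75.6 CPM in those labelled U2AF2 SINC. The groups all but touched, since the lowest library of the first stood at 75.8 and the highest of the second at 75.6 CPM. The log2 fold change was 0.35 ± 0.17 (SE, 95% interval -0.03 to 0.73, edgeR adjusted p = 0.686). The genes of its corepressors NAB1 and NAB2 stood at 0.53 ± 0.34 and -0.07 ± 0.21 on the same scale (SE, edgeR adjusted p = 0.716 and 0.936).

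The promoter of EGR1 is shown because it holds the motif of serum response factor, through which this gene is known to respond to serum. The RefSeq sequence of the 250 bases before its start (GRCh38.p14, chr5:138465229-138465478, plus strand) is given with CArG boxes, the name of that motif, in capitals.
EGR1: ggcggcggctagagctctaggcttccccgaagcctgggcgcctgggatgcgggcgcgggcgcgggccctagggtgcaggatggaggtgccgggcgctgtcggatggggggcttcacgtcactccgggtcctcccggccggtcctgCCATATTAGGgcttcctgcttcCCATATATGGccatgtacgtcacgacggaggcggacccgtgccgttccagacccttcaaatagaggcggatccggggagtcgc
These boxes began 105 and 83 bases before the start. Of 35116 RefSeq promoter windows, each reaching from 250 bases before to 50 after a start, 1.29% held a CArG box, and EGR1 was the only 1 of the 7 members with a window that did. Bases further upstream were not searched, so a CArG box there, in FOS or another member, would be missed. The table gave no window for FOSL1, MYC or KLF10. SRF, which encodes serum response factor, was at 72.8, 112 and 88.6 CPM in replicates 1, 2 and 3 labelled U2AF2 SI and at 83.5, 88.1 and 76.4 CPM in those labelled U2AF2 SINC, so the groups overlapped (0.14 ± 0.19 SE on the log2 scale, edgeR adjusted p = 0.859).

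MYC had 102, 102 and 108 CPM in replicates 1, 2 and 3 labelled U2AF2 SI and 84.0, 94.9 and 84.5 CPM in those labelled U2AF2 SINC. It was the steadiest member, with 0.37 log2 units between its lowest and highest library, and the difference between group means was 18.7%. The log2 fold change was 0.25 ± 0.16 (SE, 95% interval -0.10 to 0.59, edgeR adjusted p = 0.716). MAX, its obligate partner, had 0.06 ± 0.17 (SE, edgeR adjusted p = 0.943).

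**Figure D2:**
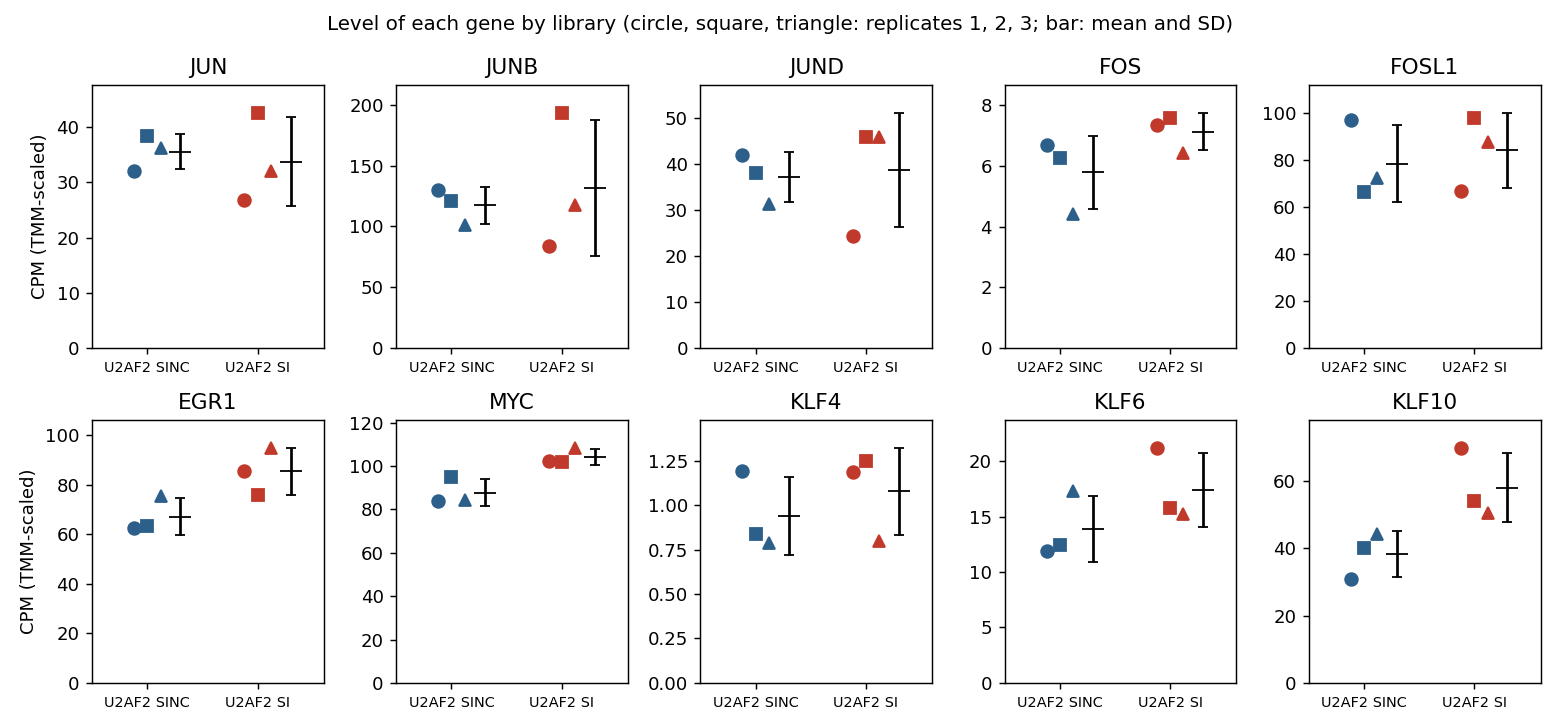
CPM (TMM-scaled) of the 10 genes in each library, with the labelled group on the x axis, circles, squares and triangles for replicates 1, 2 and 3, and the group mean with its SD beside them. Groups separate in EGR1, MYC and KLF10, while JUNB reaches 193 CPM in replicate 2 labelled U2AF2 SI and 83.8 in replicate 1 of the same group.

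The JUN genes varied more among the libraries labelled U2AF2 SI than between the groups. JUNB, which forms AP-1 dimers of weaker activity than those of JUN on many sites, had 83.8, 193 and 118 CPM in replicates 1, 2 and 3 labelled U2AF2 SI and 130.2, 121 and 101 CPM in those labelled U2AF2 SINC. The first group thus held both the lowest and the highest of the 6 libraries, which were 1.20 log2 units apart, the widest range of any member. The log2 fold change was 0.17 ± 0.27 (SE, 95% interval -0.42 to 0.75, edgeR adjusted p = 0.881), and it was -0.21 without replicate 2 labelled U2AF2 SI.

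JUND, the JUN protein associated with resting cells, had 24.4, 45.8 and 45.7 CPM in replicates 1, 2 and 3 labelled U2AF2 SI and 41.9, 38.0 and 31.4 CPM in those labelled U2AF2 SINC. JUN, the founding member and a substrate of JNK, had 26.7, 42.5 and 32.0 CPM in the former and 32.1, 38.3 and 36.1 CPM in the latter. All 3 JUN genes were lowest in replicate 1 and highest in replicate 2 labelled U2AF2 SI, so the groups overlapped. Log2 fold changes were 0.06 ± 0.25 (SE) for JUND and -0.07 ± 0.21 (SE) for JUN, with edgeR adjusted p of 0.960 and 0.936. JUN was the 1 member below 0, and it stood at 0.10 with library size alone, which is -0.12 relative to the median of all rows. JUND turned to -0.07 and -0.08 when replicate 2 or 3 of the U2AF2 SI group was left out, and to -0.05 when replicate 3 of the U2AF2 SINC group was.

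The 3 JUN genes each have 1 exon in GENCODE 29, and the other 7 members have 2 to 5. Log2 fold changes ran from -0.07 to 0.17 in the former and from 0.10 to 0.60 in the latter, a grouping made after the values were seen and not tested. In 3 of the other libraries JUN and JUND lay on opposite sides of their means: JUN deviated from its mean by -0.10, -0.10 and 0.08 log2 units in replicate 3 labelled U2AF2 SI and replicates 1 and 3 labelled U2AF2 SINC, where JUND was at 0.31, 0.18 and -0.24. Their promoters are shown to set the motifs of the 3 genes side by side. The 250 RefSeq bases before each start (GRCh38.p14; JUN at chr1:58784048-58784297 on the minus strand, JUNB at chr19:12791236-12791485 on the plus strand, JUND at chr19:18281623-18281872 on the minus strand) are given with CCAAT boxes (CCAAT), TATA boxes (TATAAA) and cyclic AMP response elements (TGACGTCA or TGACGTAA) in capitals.
JUN: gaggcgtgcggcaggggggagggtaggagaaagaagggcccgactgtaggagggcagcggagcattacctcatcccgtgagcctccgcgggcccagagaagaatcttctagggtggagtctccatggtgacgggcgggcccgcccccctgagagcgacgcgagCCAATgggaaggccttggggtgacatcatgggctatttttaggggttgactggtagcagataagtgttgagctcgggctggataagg
JUNB: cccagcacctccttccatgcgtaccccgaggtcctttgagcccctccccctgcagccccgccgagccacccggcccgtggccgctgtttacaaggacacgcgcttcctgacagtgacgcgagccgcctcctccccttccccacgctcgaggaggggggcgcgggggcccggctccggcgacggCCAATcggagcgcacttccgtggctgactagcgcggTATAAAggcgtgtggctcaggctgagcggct
JUND: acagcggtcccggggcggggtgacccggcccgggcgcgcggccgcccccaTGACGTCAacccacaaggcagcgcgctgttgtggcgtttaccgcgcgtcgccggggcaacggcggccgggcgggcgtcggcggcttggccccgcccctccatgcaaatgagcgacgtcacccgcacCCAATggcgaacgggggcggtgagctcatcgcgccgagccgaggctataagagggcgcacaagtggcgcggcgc
A CCAAT box began 87, 67 and 74 bases before the start of JUN, JUNB and JUND, against 34.6% of all windows with one on either strand. JUNB held a TATA box 31 bases before its start, as 11.5% of windows did, and JUND a cyclic AMP response element 200 bases before it, as 2.24% did. The AP-1 site itself (TGACTCA or TGAGTCA, either strand) was in 4.95% of all windows and in 0 of the 7 member windows. Only these exact letters were searched, so a variant site, in JUN or another member, would be missed. These are matches of letters, and none of them was tested for binding.

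FOS was low and FOSL1 high in these cells. FOS, the prototype of the early response genes, had 7.35, 7.59 and 6.43 CPM in replicates 1, 2 and 3 labelled U2AF2 SI and 6.70, 6.25 and 4.41 CPM in those labelled U2AF2 SINC. FOSL1, or FRA-1, a FOS protein without the strong activation domain of FOS and often abundant in carcinoma cells, had 66.6, 97.7 and 87.7 CPM in the former and 96.9, 66.3 and 72.1 CPM in the latter. Groups overlapped for each gene, through replicate 1 labelled U2AF2 SINC in FOS and through replicate 1 of both groups in FOSL1. Log2 fold changes were 0.30 ± 0.28 (SE) and 0.10 ± 0.21 (SE), with edgeR adjusted p of 0.796 and 0.912. FOSL1 was at -0.01 when replicate 2 of either group was left out.

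KLF6 and KLF4 also overlapped between the groups. KLF6, a tumour suppressor gene known for its alternatively spliced forms, had 21.2, 15.8 and 15.2 CPM in replicates 1, 2 and 3 labelled U2AF2 SI and 11.9, 12.4 and 17.3 CPM in those labelled U2AF2 SINC, so replicate 3 labelled U2AF2 SINC lay above replicates 2 and 3 of the other group. Its log2 fold change was 0.33 ± 0.24 (SE, edgeR adjusted p = 0.745). KLF4, one of the factors used to reprogram somatic cells, held only 34 to 62 counts in any library and 0.787 to 1.25 CPM. At that depth the 95% interval of its log2 fold change, -0.76 to 1.17, was the widest of the members, and a difference was not detectable.

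Per transcript length, in CPM per kb of the longest coding transcript, the members covered a wide range of levels. JUNB was highest, at 72.4 ± 30.8 in libraries labelled U2AF2 SI and 64.4 ± 8.23 in those labelled U2AF2 SINC (SD, n = 3 each), and FOSL1, at 50.3 ± 9.51 and 47.0 ± 9.75, and MYC, at 44.1 ± 1.54 and 37.1 ± 2.59, came next. Ranges over the 6 libraries overlapped between JUNB and FOSL1 and between FOSL1 and MYC, though JUNB exceeded FOSL1 in 6 of 6 libraries. EGR1 followed at 27.2 ± 3.04 and 21.4 ± 2.36, with a range apart from that of MYC, and then JUND, KLF10 and JUN, each overlapping its neighbour. KLF6 (2.56 to 4.55) and FOS (2.05 to 3.52) lay below the range of JUN and overlapped, and KLF4 (0.280 to 0.445) lay below FOS.

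**Figure D3:**
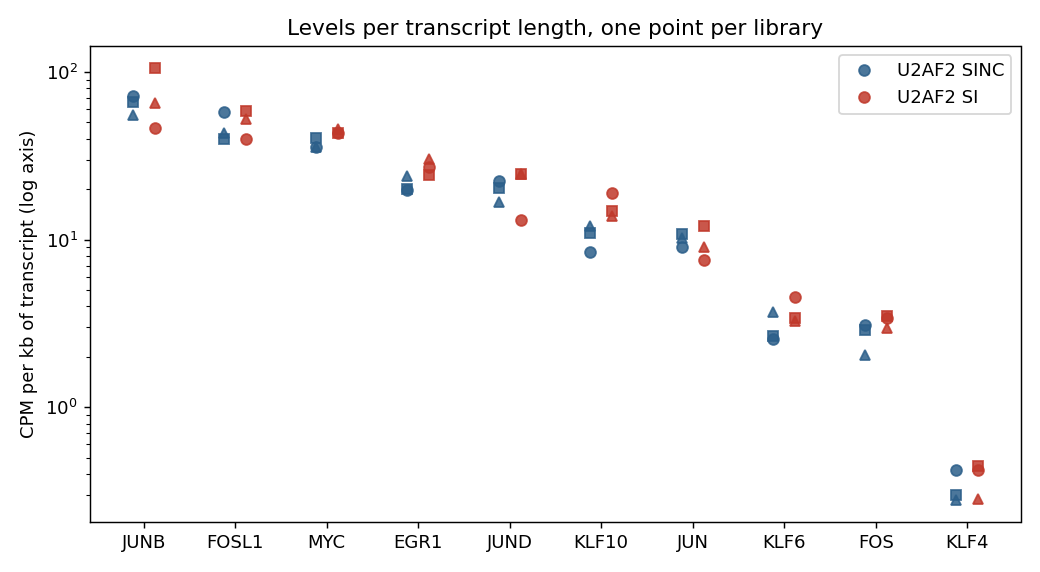
Level of each gene in CPM per kb of transcript on a log axis, ordered by its mean over the 6 libraries, with 1 point per library (red for U2AF2 SI, blue for U2AF2 SINC; circles, squares and triangles for replicates 1, 2 and 3). JUNB, FOSL1 and MYC form the upper end and KLF4, at 0.280 to 0.445, the lower end.

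For the make-up of the AP-1 pool at the RNA level, the groups overlapped in the share of every JUN and FOS gene. JUNB gave 69.8% ± 4.30 and 68.2% ± 1.10 of the JUN family per transcript length in libraries labelled U2AF2 SI and U2AF2 SINC, JUND gave 20.6% ± 3.95 and 21.0% ± 0.720, and JUN gave 9.6% ± 1.5 and 10.8% ± 1.82 (SD, n = 3 each). Among the FOS proteins, with FOSB and FOSL2 added, FOSL1 gave 76.5% ± 2.91 and 79.2% ± 4.42, FOSL2 16.1% ± 1.78 and 14.5% ± 3.57, FOS 5.10% ± 0.980 and 4.6% ± 0.890, and FOSB 2.30% ± 0.290 and 1.70% ± 0.590. Exact 2-sided permutation tests over the 6 libraries gave p from 0.2 (FOSB) to 0.8 (JUNB and JUND) for these 7 shares before any adjustment.

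The libraries also differed along the base composition and length of the transcripts, and JUNB, KLF6 and KLF10 were set beside that pattern. JUND, JUNB and FOSL1 had the highest GC content of the members (69.7%, 64.9% and 60.0%, against a median of 49.3% over all rows), and KLF6 and KLF10 the lowest (45.9% and 47.2%), though these lie nearer that median than the lowest 10% of rows, which end at 38.8%. Across the 1133 rows highest in GC content, the median deviation from the mean of the 6 libraries was -0.43 log2 units in replicate 1 and 0.39 in replicate 2 labelled U2AF2 SI, where JUNB stood at -0.52 and 0.68. Across the 1133 rows lowest in GC content, replicates 1, 2 and 3 stood at 0.51, -0.14 and -0.24 in the U2AF2 SI group and at -0.05, -0.20 and 0.16 in the U2AF2 SINC group. KLF10 was at 0.58, 0.21 and 0.11 and at -0.60, -0.22 and -0.08, and KLF6 at 0.47, 0.04 and -0.01 and at -0.36, -0.31 and 0.17. Both were thus near these rows in replicate 1 labelled U2AF2 SI and well below them in replicate 1 labelled U2AF2 SINC. The libraries differed by transcript length too. The 1133 shortest rows had medians of -0.37, -0.11 and -0.05 in replicates 1, 2 and 3 labelled U2AF2 SI. In those labelled U2AF2 SINC the medians were 0.32, 0.31 and -0.07. The median length of these rows was 1088 bases, against 4656 for KLF6 and 3659 for KLF10. The 277 rows of 1 exon had medians of -0.11, 0.13 and 0.01 in replicates 1, 2 and 3 labelled U2AF2 SI. In those labelled U2AF2 SINC they had medians of 0, 0.04 and -0.06.

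When a smooth trend on length and base composition was taken out of every library, the range of JUNB over the 6 libraries was 0.46 log2 units in place of 1.20, that of KLF6 0.22 in place of 0.83, and that of FOSL1 0.70 in place of 0.56. The libraries labelled U2AF2 SI then lay above the others in KLF10, MYC, JUNB and FOSL1, 4 of the 10, where 7.18% of all rows stood that way with the same trend removed, and EGR1 overlapped. In FOSL1 the groups all but touched, with a lowest deviation of 0.09 for U2AF2 SI and a highest of 0.08 for U2AF2 SINC. Log2 fold changes became 0.43 for KLF10 (edgeR unadjusted p = 0.00733), 0.26 for MYC, 0.28 for EGR1, 0.24 for JUNB and 0.12 for KLF6, with adjusted p of 0.629, 0.652, 0.672, 0.661 and 0.852, and 0 members passed over all rows. What length and base composition stand for in these libraries was not tested.

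**Figure D4:**
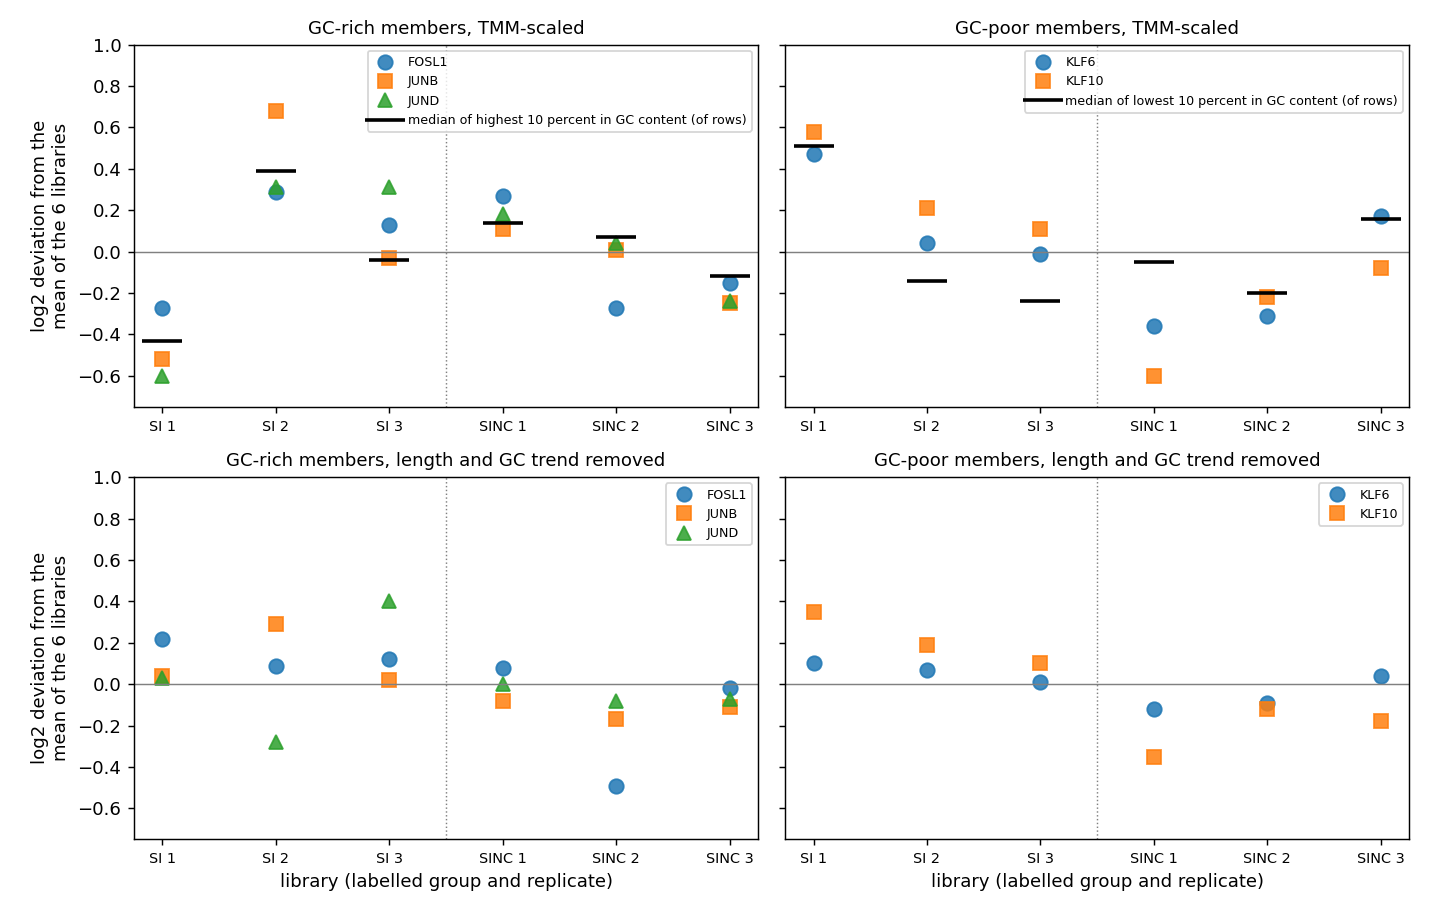
Deviation of single genes from their mean over the 6 libraries (log2), for the 3 members highest in GC content (left) and the 2 lowest (right), before (top) and after (bottom) removal of the trend on length and GC content; black bars are medians of the 10% of rows highest or lowest in GC content. JUNB follows the bars from -0.52 in replicate 1 to 0.68 in replicate 2 labelled U2AF2 SI, and after removal it spans 0.46. The other GC-rich members leave the bars in places. JUND is at 0.31 in replicate 3 labelled U2AF2 SI, where the bar is at -0.04. FOSL1 is at -0.27 in replicate 2 labelled U2AF2 SINC, where the bar is at 0.07.

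The rows most like a member were sought for the 3 members with the widest ranges, by the root mean square difference of log2 deviations over the 6 libraries among 7477 other symbol-named rows of at least 10 CPM. For JUNB they were MAZ (0.041), SLC25A6 (0.054) and HPS6 (0.058), with GC contents of 66.0%, 64.9% and 64.2%. For KLF10 they were LMNB1 (0.067), BCOR (0.070) and AMMECR1L (0.074), with GC contents of 47.7%, 51.5% and 47.1%, on either side of the median of all rows. For JUND they were AKT1S1 (0.085), RPUSD2 (0.090) and ANAPC2 (0.094), with 60.4%, 54.1% and 63.3%.

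The wider AP-1 family was measured in 13 of 16 genes, 9 above and 4 below 0, with a median log2 fold change of 0.06 and 0 at an unadjusted p under 0.05. In 3 of the 13 every library labelled U2AF2 SI lay above every other, where 7.36% of all rows stood that way. FOSB and FOSL2, the remaining FOS proteins, were among these 3. FOSB had 5.13, 5.59 and 6.31 CPM in replicates 1, 2 and 3 labelled U2AF2 SI and 2.76, 3.95 and 4.50 CPM in the other group (0.60 ± 0.31 SE on the log2 scale, edgeR adjusted p = 0.687). FOSL2 had 66.4, 74.7 and 68.8 CPM against 48.8, 61.3 and 58.5 CPM (0.32 ± 0.17 SE, edgeR adjusted p = 0.692). BATF3, a small partner of JUN proteins, stood at -0.57 ± 0.31 (SE). Of 23 other KLF and SP factors, 13 were measured and 10 lay above 0 (median 0.22, or 0.04 with the length and GC trend removed), with 0 at an unadjusted p under 0.05, and the smallest p were those of KLF9 at 0.85 ± 0.40 (SE), KLF13 at 0.39 ± 0.22 (SE) and SP1 at 0.39 ± 0.24 (SE).

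Other early response genes had 29 of 41 above 0 (median 0.17), and 4 were higher at an unadjusted p under 0.05 in libraries labelled U2AF2 SI and 0 lower, where 3.15% of all rows were higher and 4.22% lower. The count of 4 was 1 with a replicate block or with replicate 1 of the U2AF2 SINC group left out, and 2 with replicate 3 of the U2AF2 SI group left out. The 4 were ZFP36L1 at 0.62 ± 0.19 (SE) and ZFP36L2 at 0.51 ± 0.21 (SE), which encode proteins that bind AU-rich elements and speed mRNA decay, CCN2, a matricellular protein gene, at 0.36 ± 0.15 (SE), and TRIB1, a pseudokinase gene, at 0.66 ± 0.29 (SE). CCN1 (-0.01) and IER2 (-0.03) stood near 0. Upstream, 32 kinases and transcription factors had a median of 0.15. ELK3 stood at 0.51 ± 0.29 (SE) and MAPK14, which encodes p38 alpha, at 0.32 ± 0.19 (SE).

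Target genes lay on both sides of 0. Of 37 AP-1 targets, 20 were measured, 15 of them above 0 (median 0.14). CCND1, which encodes cyclin D1, was the 1 target higher at an unadjusted p under 0.05 (0.59 ± 0.19 SE, edgeR adjusted p = 0.653), while MMP1, the collagenase gene with a classic AP-1 site in its promoter, had 379 ± 91.2 against 532 ± 120.2 CPM (SD, n = 3 each; -0.49 ± 0.23 SE, edgeR adjusted p = 0.672) and NQO1 -0.35 ± 0.19 (SE). Of 46 MYC targets, 26 lay above and 20 below 0 (median 0.05), with 4 higher at an unadjusted p under 0.05 and 2 lower, against the same 3.15% and 4.22% of all rows. The count of 4 was 0 with replicate 2 of the U2AF2 SINC group left out and 9 with replicate 3 of it left out, 2 with replicate 1 of either group or replicate 3 of the U2AF2 SI group left out, and the median was -0.05 with replicate 2 of the U2AF2 SI group left out. The lower ones were HSPE1, a mitochondrial chaperonin gene (-0.80 ± 0.23 SE), and NME1 (-0.59 ± 0.21 SE), and the higher ones were HK2, a hexokinase gene (0.59 ± 0.22 SE), PPAT (0.69 ± 0.27 SE), UTP20 (0.83 ± 0.35 SE) and CAD (0.36 ± 0.16 SE). In the MYC network 14 of 22 lay above 0 (median 0.17), with HUWE1, a ubiquitin ligase gene, at 0.53 ± 0.22 (SE) and TRRAP, a MYC coactivator gene, at 0.44 ± 0.19 (SE) higher at an unadjusted p under 0.05, and MXD1 at 0.70 ± 0.40 (SE). That count of 2 ran from 0 to 3 as single libraries were left out, with 0 for replicate 1 or 3 of the U2AF2 SI group or replicate 2 of the U2AF2 SINC group. Among the AP-1 targets 0 were higher at that p with replicate 1 of the U2AF2 SINC group left out.

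Proteins that set the lifetime of unstable mRNAs such as those of FOS and MYC had 27 of 30 genes above 0, with a median log2 fold change of 0.29. At an unadjusted p under 0.05 there were 9 higher in libraries labelled U2AF2 SI and 0 lower, and 14 of the 30 did not overlap in that direction, where 3.15% of all rows were higher, 4.22% lower and 7.36% without overlap. The 9 included genes for decay factors (ZFP36L1, ZFP36L2, KHSRP at 0.40 ± 0.18 SE, and CNOT1, CNOT4 and CNOT11, named for the CCR4-NOT deadenylase, at 0.58 ± 0.20, 0.84 ± 0.33 and 0.39 ± 0.16 SE) and also the IGF2BP genes, whose products protect MYC mRNA (IGF2BP1 at 0.43 ± 0.17, IGF2BP2 at 0.52 ± 0.23 and IGF2BP3 at 0.89 ± 0.33 SE). None passed over all rows (edgeR adjusted p of 0.653 to 0.654). The list was chosen with earlier results of these data known, and ZFP36L1 and ZFP36L2 are also counted among the early response genes above. With replicate 2 of the U2AF2 SINC group left out the count of 9 became 2, while the rows at that p, in either direction, went from 881 to 384. It was 3 to 5 with replicate 1 of either group or replicate 3 of the U2AF2 SI group left out, and 4 with a replicate block, and with the length and GC trend removed the median was 0.17.

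**Figure D5:**
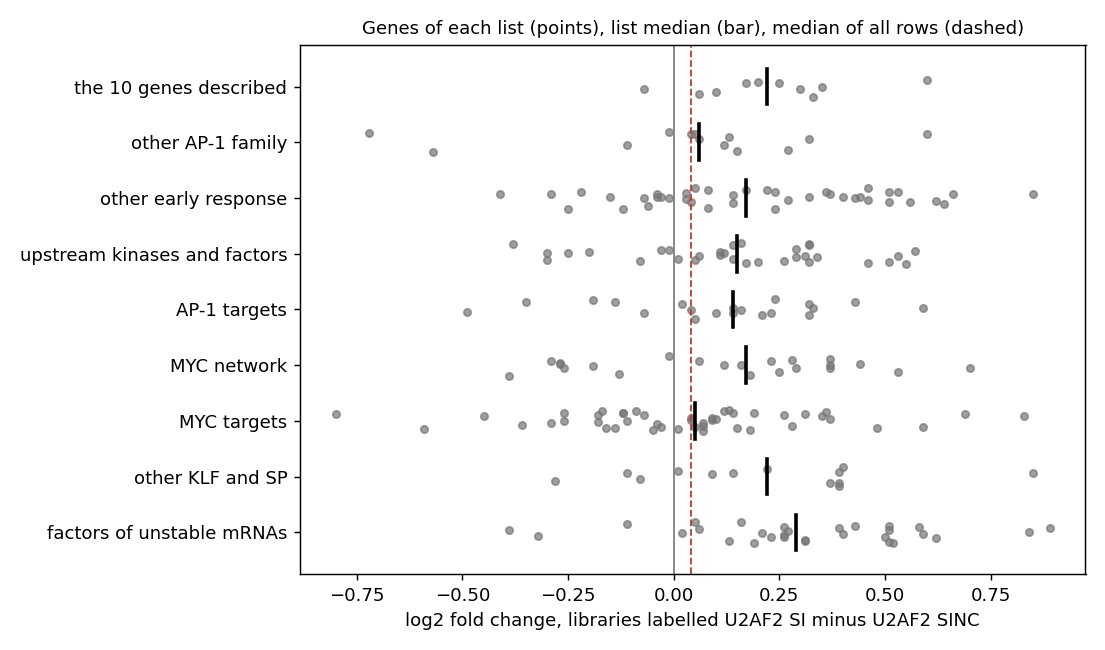
Log2 fold change (libraries labelled U2AF2 SI minus U2AF2 SINC) of each measured gene of the 9 lists as a point, list medians as black bars and the median of all rows, 0.04, as a dashed line. The factors of unstable mRNAs have the highest median of these lists, 0.29, and the MYC targets lie on either side of 0 around 0.05. The lists were chosen with earlier results of these data known.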

How the data were processed

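Counts per gene or assembled locus were deposited by the authors as whole numbers, used here as raw counts. The submitters' processing notes name CASAVA and StringTie. The rest, from aligner and build to gene models, is not given in the sources used here. Rows had a mean of at least 31 counts. Columns were tied to samples by the descriptions, and 0 columns were left over. Differences were tested over all 11957 rows with edgeR 4.0.16 in R 4.3.3 (TMM factors, filterByExpr, glmQLFit and glmQLFTest, group as the only term), with Benjamini-Hochberg adjustment and a threshold of 0.05. The test was run first on simulated data. Standard errors come from the quasi-likelihood F statistic. Within a group, chi-square per degree of freedom between libraries was 56.0 to 170.1, so none was a repeat. Counting error does not cover PCR duplicates.

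Each gene took its length, exon number and GC content from its longest coding transcript in GENCODE 29 (99.6% of rows with a symbol or Ensembl identifier). The trend was a loess fit (span 0.3), first on length, then on GC content, separately per library. Alternatives were other scaling (RLE, upper quartile, library size alone), other filters (none, or a mean from 5 CPM), a replicate block, omission of each library, DESeq2 1.42.0, limma-voom (limma 3.58.1), omission of assembled loci, and removal of the trend. Promoters are RefSeq's on GRCh38.p14. Members, lists and tests were chosen with earlier results of these data known. Named genes were the members, U2AF2, and in each list those at an unadjusted p under 0.05 and the 3 smallest p, of which 1 gene is not reported here. U2AF1, also named by the rule, had a log2 fold change of -0.29. NAB1, NAB2, MAX, SRF, CCN1 and IER2 were chosen after their values were seen.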

Additional observations from a re-analysis of the deposited data

How the results depend on the processing

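In the 16 alternatives 0 members passed an adjusted p of 0.05; DESeq2's independent filtering gave the members no adjusted p. The call count of 1 became 0 with upper-quartile scaling, library size alone, a mean of at least 5 CPM or the trend removed. It was 2 with the replicate block and 0 to 2 without 1 library. In DESeq2 it was 61, among only the 1062 rows to which that method gave an adjusted p. The members at an unadjusted p under 0.05 numbered 3 with library size alone and 0 to 2 without 1 library: 0 without replicate 1 of either group, 2 without replicate 2 labelled U2AF2 SI or replicate 3 labelled U2AF2 SINC. Their median was 0.42 with library size alone and 0.11 to 0.26 without 1 library. Signs turned for JUN (0.10 with library size alone; -0.26 to 0.05 without 1 library), FOSL1 (-0.01 to 0.28), JUNB (-0.21 to 0.39) and JUND (-0.08 to 0.29); the cause was not tested. KLF10 ran from 0.43 to 0.78 and stayed at an unadjusted p under 0.05 in 14 of 16. The setting without a filter is counted among these but repeats the main fit, because the main filter kept every row. No label says that replicate numbers mark a shared culture or day, so they were not taken as pairs. Same-numbered libraries of the 2 groups had correlations of deviations of -0.09, 0.25 and -0.31, which do not settle pairing with 3 libraries per group. With the replicate block KLF10 stood at 0.60 (edgeR unadjusted p = 0.0349). Depth limits KLF4 most, at 34 to 62 counts.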
